A study of Mus musculus with 6 samples.

Results

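Brown fat burns fuel to make heat, and oxidative skeletal muscle burns it to contract; both tissues are packed with mitochondria and use several of the same genes to equip them. Ucp1 encodes the uncoupling protein that lets protons leak across the inner mitochondrial membrane of brown and beige fat cells, so that the energy of respiration is released as heat. Other genes of the programme, such as the tissue isoforms of cytochrome c oxidase, are used by brown fat, skeletal muscle and heart alike, so their level alone does not say which tissue an RNA came from.

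A set of 10 such genes was followed here among 23460 genes or unnamed transcripts measured in mammary gland RNA. Cox8b, Cox7a1, Fabp3 and Ppargc1a were taken as shared by brown fat and muscle, Ucp1, Cidea and Zic1 as restricted to brown fat within this pair of tissues, and Prdm16, Dio2 and Elovl3 as further brown fat genes. The members were found on the array as all non-control probes whose RefSeq accession belongs to one of these genes, which gave 13 probes. The set was chosen by a rule that drew on measured values, the differences between the diets in these same samples, so the differences of its members between diets are described below without a test.

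All 6 mice were female Trp53 knockouts (Trp53-/-), and no mouse with intact Trp53 was measured. Feeding began at 3 weeks of age, with a high-fat diet (HFD) for 3 mice and a control diet (CD) for the other 3. RNA was taken at 8 weeks of age, after 5 weeks of feeding, and each mouse has 1 single-colour array. The labels name whole mammary glands as the tissue but mammary epithelial cells in the sample descriptions, and neither the composition of the diets nor the extent of the Trp53 deletion is stated.

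A level below is the log2 signal of a probe minus the 75th percentile of its array, and a difference is the mean of the 3 high-fat arrays minus the mean of the 3 control arrays, on the same log2 scale. Levels of different probes are not set against each other, because probes differ in how brightly they bind. The 75th percentile lay between 1326 and 1973 intensity units, 27203 to 29412 probes per array were well above background by the scanner's own flag, and no probe was saturated. The number of arrays limits the precision. Groups are called not overlapping when all 3 arrays of one diet lie on one side of all 3 of the other, which was the case for 8.75% of all genes with lower values after the high-fat diet and for 8.47% with higher values.

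The labelled tissue was checked against markers of the cells it could hold. Keratins of both epithelial layers were well above background on every array, with Krt18 at 7.35 to 8.45 and Krt5 at 4.60 to 6.16. Of 8 markers of white fat cells, which fill the fat pad of a whole gland, 6 were well above background on all 6 arrays. Adipoq, which encodes adiponectin, was so on 5 of 6 and ranged from -7.33 to -5.74, where the lowest detected signal of an array lay between -7.87 and -6.83. Plin1, which coats the fat droplet, stayed between -6.41 and -5.86, Lep between -6.02 and -5.37 and Cidec between -6.51 and -5.98. Cfd, which encodes adipsin, lay between -5.60 and -3.03, and Fabp4, the fatty acid-binding protein of fat cells, between 0.39 and 2.55. Adipoq, Plin1, Lep and Cidec thus lay close to the lowest detected signal, while Fabp4 did not. Whether whole glands or epithelial cells gave the RNA was not tested. Of the 20 skeletal muscle markers, 18 entered the comparison, while Myh2, the myosin of fast oxidative fibres, reached that mark on 0 of 6 arrays and Myh4, that of the fastest fibres, on 2 of 6. In bulk RNA, fewer cells of a type and less RNA per cell cannot be told apart.

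The brown fat label was checked in the same way. The Ucp1 probe was well above background on all 3 control arrays and on 1 of 3 high-fat arrays. Elovl3, a fatty acid elongase induced in brown fat by cold, was well above background on 0 of 6 arrays and is left out of the fitted values. Cidea, Zic1 and Dio2 were well above background on all 6 arrays. Ucp1, the defining gene, thus lay at or near the lowest detected signal.

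In all, 9 of the 10 genes and 11 of the 13 probes passed the filter of being well above background on at least 3 of 6 arrays. Ucp1 passed it through its 3 control arrays and a single high-fat array, so its entry into the fit is not independent of its difference. Where a gene had several probes, the one with the highest mean level was used in the fit and the other is given beside it.

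Sequences upstream of a few members are shown because the set mixes genes of muscle and of brown fat control, and the letters below let the windows be compared. Of the 10 genes, 8 matched an entry in RefSeq's promoter table (build GRCm38.p6). The 250 bases before the gene's start are given 5′ to 3′ on the gene's strand for Cox8b (chr7:140900447-140900696, minus strand), Fabp3 (chr4:130308488-130308737, plus strand) and Ucp1 (chr8:83290098-83290347, plus strand). Cox8b and Fabp3 are the shared genes whose diets did not overlap, and Ucp1 is the defining brown fat gene. Capitals mark the E-box CAGCTG, a form bound by myogenic factors, and TGACG, the half-site of the cyclic AMP response element, on either strand.
Cox8b: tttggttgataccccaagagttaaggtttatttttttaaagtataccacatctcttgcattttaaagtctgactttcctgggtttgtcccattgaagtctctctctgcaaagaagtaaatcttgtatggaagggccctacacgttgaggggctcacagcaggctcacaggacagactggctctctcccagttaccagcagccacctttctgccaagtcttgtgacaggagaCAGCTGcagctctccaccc
Fabp3: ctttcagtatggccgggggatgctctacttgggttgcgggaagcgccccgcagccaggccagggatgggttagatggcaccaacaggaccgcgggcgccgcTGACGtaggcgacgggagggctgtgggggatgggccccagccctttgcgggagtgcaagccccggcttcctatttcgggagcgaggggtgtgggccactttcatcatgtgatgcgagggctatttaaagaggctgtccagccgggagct
Ucp1: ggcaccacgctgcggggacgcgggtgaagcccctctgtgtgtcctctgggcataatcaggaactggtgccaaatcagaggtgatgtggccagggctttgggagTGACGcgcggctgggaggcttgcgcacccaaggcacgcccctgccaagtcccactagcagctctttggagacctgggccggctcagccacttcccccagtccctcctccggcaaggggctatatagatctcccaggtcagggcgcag

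Among the 8 windows, CAGCTG occurred in that of Cox8b alone, and it occurs in 13.0% of all 32851 windows of this length. TGACG occurred in those of Ucp1, Dio2, Fabp3 and Ppargc1a, against 17.8% of all windows, and the full element TGACGTCA, which contains it, in that of Dio2 (1.55% of all windows). Neither AAGGTCA, the site of the oestrogen-related receptors that work with PGC-1, nor the MEF2 consensus occurred in any of the 8, against 4.08% and 2.92% of all windows. Both strands were searched. A match describes the letters and says nothing about binding in these glands.

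The first question was how the genes shared by brown fat and muscle differed between the diets. All 4 had lower mean levels after the high-fat diet, by a median of 0.94 on the log2 scale, where the median difference of all genes was -0.0083. The diets did not overlap for Cox8b and Fabp3 and overlapped for Cox7a1 and Ppargc1a.

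Cox8b (NM_007751) encodes the heart, muscle and brown fat isoform of subunit 8 of cytochrome c oxidase, the enzyme that hands electrons to oxygen at the end of the respiratory chain. Its level was -6.23, -5.17 and -5.94 on high-fat replicates 1 to 3 and -4.03, -3.41 and -4.18 on control replicates 1 to 3. Every high-fat array lay below every control array, and all 6 were well above background. The means were -5.78 ± 0.55 and -3.87 ± 0.41 (SD, n = 3 each), a difference of -1.91 (SE 0.33) or 3.75-fold. Of all genes, 0.546% had a difference at or below that of Cox8b. With a normexp background the difference was -0.090, or -0.36 from the median of all genes.

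Cox7a1 (NM_009944), the heart and muscle isoform of subunit 7a of the same enzyme, had levels of -1.95, -1.80 and -0.86 under the high-fat diet. On control replicates 1 to 3 it had -1.16, -0.15 and -0.18. High-fat replicate 3 lay above control replicate 1, so the diets overlapped, and the difference was -1.04 (SE 0.39). Cox7a1 was lowest on high-fat replicates 1 and 2 and highest on control replicates 2 and 3, as was the first principal component of all genes, which held 46.7% of the variance. The mean of the fibroblast list (10 of 10 genes measured) was 4.06 and 4.09 on high-fat replicates 1 and 2, 5.27 on high-fat replicate 3, 5.01 on control replicate 1, and 5.68 and 5.82 on control replicates 2 and 3. The mean of the 5 defining fibroblast markers did not overlap, at 3.81, 4.01 and 5.03 on the high-fat arrays and no lower than 5.33 on the control arrays. Slide followed this pattern too: control replicates 2 and 3 shared a slide without a high-fat array, and high-fat replicate 1 had no other array on its slide. Within the slide that held both diets, Cox7a1 differed by -0.16. The part of stroma or of slide in the Cox7a1 difference was not tested.

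Fabp3 (NM_010174), the heart-type fatty acid-binding protein that carries fatty acids to mitochondria in muscle, was measured by 2 probes. On the brighter one its levels were -4.17, -4.33 and -3.57 on the high-fat arrays and -2.85, -3.43 and -3.23 on the control arrays. These did not overlap, though only narrowly between high-fat replicate 3 and control replicate 2. The difference was -0.85 (SE 0.25), or 1.80-fold. The other probe differed by -1.36, from -3.52 ± 0.41 to -4.87 ± 0.94 (SD, n = 3 each), and there high-fat replicate 3 at -3.89 lay above control replicate 2 at -3.95.

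Ppargc1a (NM_008904) encodes PGC-1alpha, a coactivator that drives mitochondrial biogenesis in brown fat and in slow muscle. Its brighter probe was dim and scattered, at -6.38, -7.00 and -6.92 under the high-fat diet and -4.73, -7.81 and -5.96 under the control diet. Control replicate 2 held the lowest value of all and control replicate 1 the highest, and both high-fat replicate 2 and control replicate 2 were not well above background. The difference of -0.60 (SE 0.74) was smaller than its error, and without control replicate 1 it was 0.12. The second probe was well above background on 0 of 6 arrays.

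**Figure D1:**
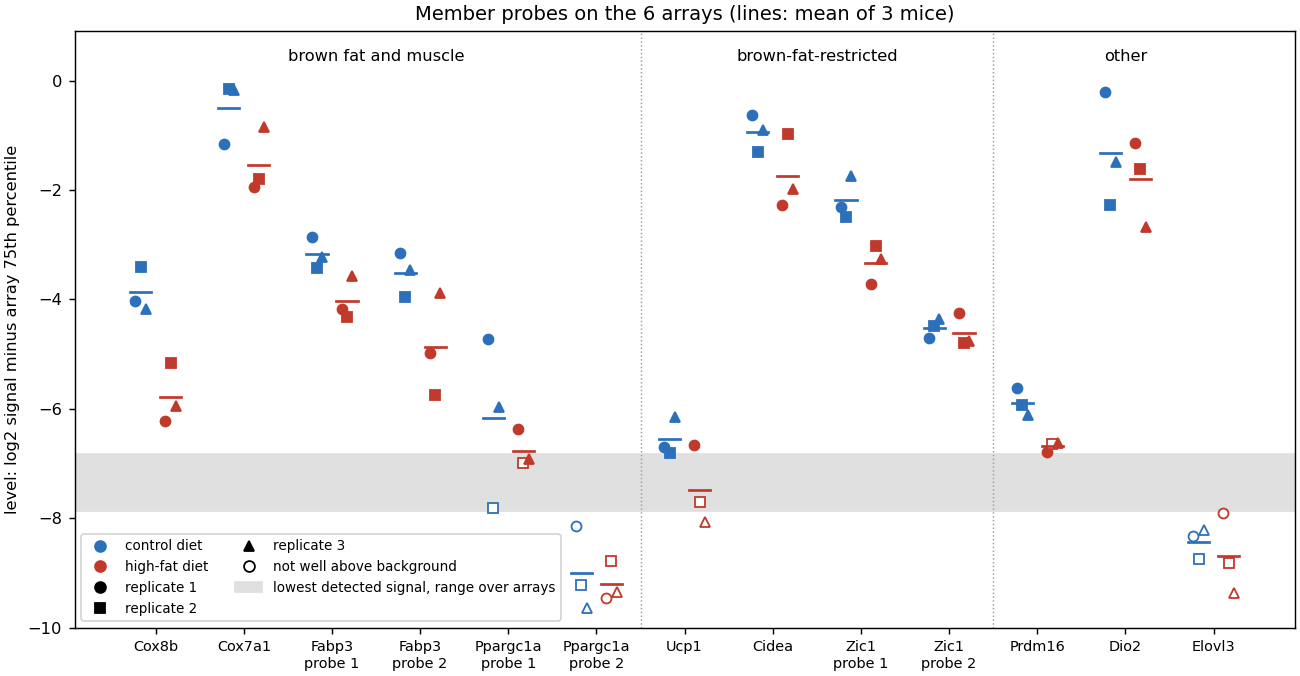
Level of each of the 13 probes on each array, in log2 signal relative to the array's 75th percentile; colours give the diet, symbols the replicate, lines the mean of 3 mice, open symbols probes not well above background, and the grey band the range over arrays of the lowest detected signal. Cox8b at -3.87 under the control diet and -5.78 under the high-fat diet lies above the band on all 6 arrays, as does Cidea, while Ucp1 has values in it and below it, Elovl3 lies below it, and Ppargc1a probe 1 spreads from -7.81 to -4.73.

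The second question was how the genes that muscle does not share differed. The 3 brown-fat-restricted genes had a median difference of -0.93, beside -0.94 for the shared genes, and ranged from -1.15 to -0.80 within the range of -1.91 to -0.60 of the shared ones. The restricted median is the difference of Ucp1 itself, which entered the fit through its control arrays, and it was -0.80 when dim signals were raised to the lowest detected signal. The mean of the shared genes minus the mean of the restricted genes within each array was -0.46, -0.67 and 0.11 on high-fat replicates 1 to 3 and 0.02, -0.16 and -0.46 on control replicates 1 to 3. The diets overlapped on this measure, and its means of -0.34 ± 0.40 and -0.20 ± 0.24 (SD, n = 3 each) differed by less than the spread between replicates. With 4 and 3 genes this does not show that the classes act alike.

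Zic1 (NM_009573), a zinc finger factor that marks classical brown fat and is absent from white fat, showed the clearest separation of the restricted genes on its brighter probe. Levels were -3.72, -3.02 and -3.26 under the high-fat diet and -2.32, -2.50 and -1.74 under the control diet, without overlap. The difference was -1.15 (SE 0.27). Its second probe, also well above background on all 6 arrays, did not show it: the means there were -4.61 ± 0.31 and -4.51 ± 0.18 (SD, n = 3 each), with the diets overlapping and a difference of -0.091.

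Cidea (NM_007702) encodes a lipid droplet protein used as a brown fat marker, which secretory mammary epithelium also uses during lactation. Its levels were -2.28, -0.98 and -1.98 on the high-fat arrays and -0.63, -1.31 and -0.91 on the control arrays. High-fat replicate 2 lay inside the control range, and the difference was -0.80 (SE 0.37). On the third gene, Ucp1 (NM_009463), levels were -6.67, -7.70 and -8.06 under the high-fat diet and -6.69, -6.81 and -6.15 under the control diet. High-fat replicate 1 lay inside the control range, and the other 2 high-fat arrays were not well above background. The difference of -0.93 (SE 0.38) became -0.41 when dim signals were raised to the lowest detected signal of their array.

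Of the further brown fat genes, Prdm16 (NM_027504), a factor that turns precursor cells toward brown fat and away from muscle, had the tightest replicates. It had -6.78, -6.64 and -6.63 on the high-fat arrays and -5.63, -5.93 and -6.11 on the control arrays. The diets did not overlap and differed by -0.80 (SE 0.16), with high-fat replicate 2 not well above background. Dio2 (NM_010050), the deiodinase that activates thyroid hormone in brown fat, was spread widely within each diet, from -2.67 to -1.14 under high-fat and from -2.27 to -0.21 under control. Its difference of -0.48 (SE 0.61) was 0.07 without control replicate 1, the array that was also highest for Ppargc1a. Elovl3 stayed between -9.36 and -7.90 over all arrays.

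Over the 9 fitted genes, 9 differences were negative, where 51% of all genes had a negative difference. The diets did not overlap, with lower values after the high-fat diet, for 4 of them (Cox8b, Fabp3, Zic1 and Prdm16), beside 8.75% of all genes. Since the set was chosen with this comparison known, nothing is read from these shares.

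Only 1 slide held both diets, with high-fat replicates 2 and 3 and control replicate 1. The fit with slide as a block takes its estimate from that slide, where the differences were -1.53 for Cox8b, -1.10 for Fabp3, -0.82 for Zic1 and -1.01 for Prdm16. There Cox7a1 differed by -0.16, and Ucp1 and Cidea by -1.19 and -0.85. The values of -2.23 for Ppargc1a and -1.93 for Dio2 on this slide rest on the high control replicate 1. The median within the slide was -1.31 for the shared and -0.85 for the restricted genes.

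Direction at low signal depended on how background was removed. With a normexp background, under which the median difference of all genes was 0.27, Ucp1, Prdm16 and Ppargc1a had positive differences of 0.69, 0.59 and 0.52. Cox8b and Fabp3 stood at -0.090 and -0.039, which is -0.36 and -0.31 from the median of all genes. The brighter members kept their direction, with -0.88 for Cox7a1, -0.48 for Cidea, -0.11 for Dio2 and -0.33 for the brighter Zic1 probe. The second Zic1 probe did not, at 0.63.

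**Figure D2:**
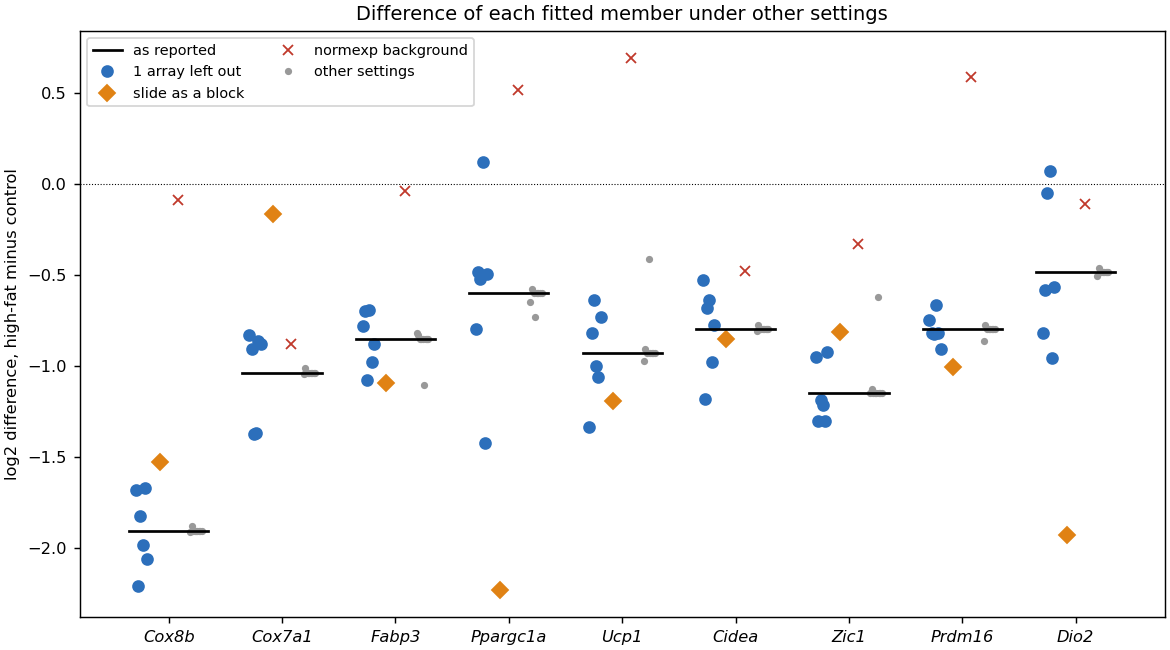
Difference of each of the 9 fitted members, in log2 units, as reported (line) and under other settings: each array left out, slide as a block, normexp background and the remaining settings. The normexp crosses for Ucp1 (0.69), Prdm16 (0.59) and Ppargc1a (0.52) are above 0, where the median of all genes was 0.27 under that setting, and leaving out 1 control array moves Ppargc1a and Dio2 to 0.12 and 0.07.

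The members were next set beside relatives in their own families, tested in limma across all genes. There, 0.0171% of all genes passed at an adjusted p under 0.05 with lower values after the high-fat diet and none with higher values, while at an unadjusted p under 0.05 there were 7.46% lower and 5.88% higher. Of the 9 fitted members, 0 passed the adjusted threshold, so it does not set them apart from their relatives. The common isoforms of the same oxidase subunits did not pass either. Cox8a differed by -0.24 (SE 0.15, limma adjusted p = 0.477) and Cox7a2 by -0.097 (SE 0.14, limma adjusted p = 0.755). Over the 11 common cytochrome c oxidase subunits the median was -0.079 and the range -0.32 to 0.17. None of the 11 passed in limma, and 0 had an unadjusted p under 0.05. Cox6a2, the third muscle isoform of the oxidase and not a member here, differed by -1.04 (SE 0.52, limma adjusted p = 0.416), with the diets overlapping.

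Because both genes of a pair are read on the same array, their ratio does not depend on scaling, but it does depend on how background is removed. Ratios were not formed with a normexp background. Under it Cox8b differed by -0.090 and the common oxidase subunits by a median of -0.22. The log2 ratio of Cox8b to Cox8a was -12.5, -11.5 and -12.3 on the high-fat arrays and -10.4, -10.1 and -10.9 on the control arrays, without overlap. That of Cox7a1 to Cox7a2 overlapped between the diets, with a difference of -0.94. That of Fabp3, on its brighter probe, to Fabp5, the epidermal fatty acid-binding protein, did not overlap. Its means were -9.62 ± 0.80 and -8.66 ± 0.04 (SD, n = 3 each). The gap was narrow, between high-fat replicate 3 at -8.72 and control replicate 2 at -8.69. Against Fabp4, Fabp3 overlapped between the diets. The size of such a ratio reflects the probes as well as the RNA, so only its change between arrays is read.

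Other relatives of the members did not pass either. Fabp4 and Fabp5 differed by 0.12 (SE 0.56) and 0.11 (SE 0.24), and Ucp2 and Ucp3, the uncoupling proteins of other tissues, by -0.020 (SE 0.19) and 0.066 (SE 0.17). Cidec, the droplet protein of white fat, differed by -0.038 (SE 0.17), with signals close to background. The limma adjusted p of these 5 genes ranged from 0.846 for Fabp5 to 0.966 for Ucp2. Ppargc1b, the closest relative of Ppargc1a, differed by -0.27 (SE 0.17, limma adjusted p = 0.504).

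**Figure D3:**
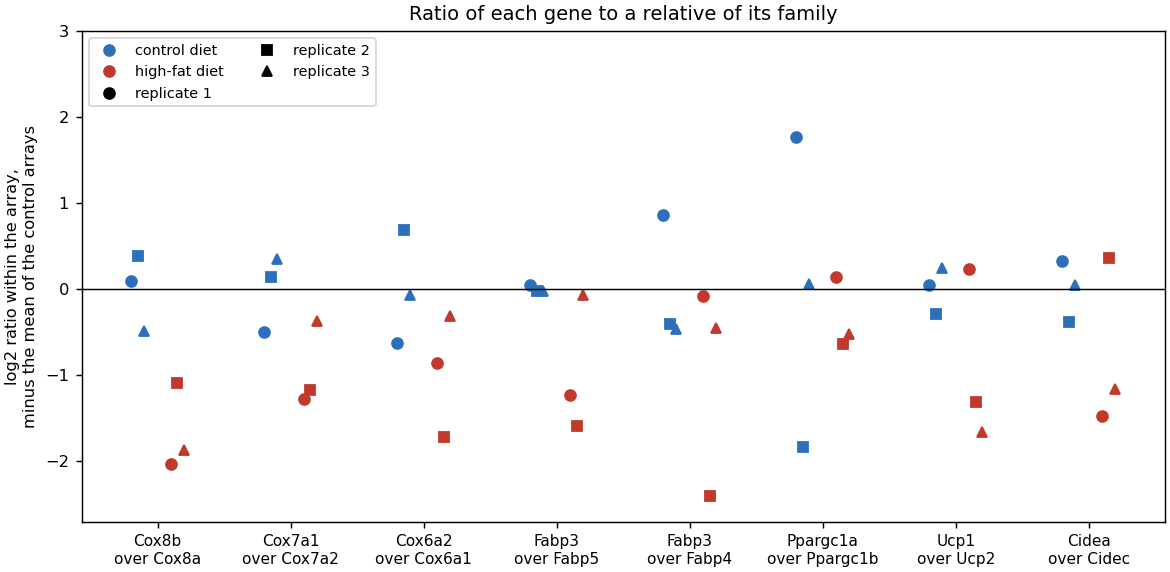
Log2 ratio of each gene to a relative on the same array, minus the mean of the 3 control arrays for that pair; colours give the diet and symbols the replicate. With the scanner's own background removal, Cox8b over Cox8a separates the diets, Fabp3 over Fabp5 does so only narrowly, and the other pairs overlap.

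The wider programmes that these genes belong to were tested in the same fit. Of 23 core genes of oxidative phosphorylation and the citric acid cycle, 0 passed in limma and 0 had an unadjusted p under 0.05, with a median difference of 0.068 (-0.082 with a normexp background). At an unadjusted p under 0.05, 2 of 22 fatty acid oxidation genes were lower and 0 higher, beside 7.46% and 5.88% of all genes. Of the 22 genes, 0 passed, with a median of -0.060. Cpt1a, which admits fatty acids to mitochondria, had the lowest p of them and differed by -1.02 (SE 0.22, limma adjusted p = 0.224), while Cpt1b, its muscle and brown fat isoform, differed by 0.090 (SE 0.21, limma adjusted p = 0.847).

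Of 19 measured partners of PGC-1, 0 passed in limma, with a median of 0.0036. At an unadjusted p under 0.05 there were 1 lower and 2 higher, beside 7.46% and 5.88% of all genes. Esrra, an oestrogen-related receptor that PGC-1 coactivates, differed by 0.044 (SE 0.15) and Tfam, which packages and transcribes mitochondrial DNA, by 0.31 (SE 0.12, limma adjusted p = 0.363). Pparg, the nuclear receptor of fat cell differentiation, was lower without overlap (-1.09, SE 0.25, limma adjusted p = 0.231), and Nrip1, a corepressor of oxidative genes, was higher without overlap (0.84, SE 0.27, limma adjusted p = 0.320).

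A list of 26 other brown and beige fat genes gave a median of -0.098. In limma 0 of 26 passed. At an unadjusted p under 0.05 there were 3 lower and 1 higher, beside 7.46% and 5.88% of all genes. The 3 with lower values were Lhx8, a homeobox gene of classical brown fat (-0.90, SE 0.19), Tbx1, a T-box gene of beige fat (-1.38, SE 0.35), and S100b, a calcium-binding protein also found in beige fat and glia (-2.09, SE 0.45). Their limma adjusted p ranged from 0.224 to 0.263, and the diets overlapped for none of them. Ebf2 and Ppara, regulators of brown fat identity and of fatty acid use, differed by -0.26 (SE 0.27) and -0.0071 (SE 0.12). With a normexp background the median of this list was 0.44, or 0.17 from the median of all genes.

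Muscle genes had lower values in the same direction as the members. The difference was negative for 15 of 18 skeletal muscle markers measured and its median -1.11. The diets did not overlap for 14 of them, with lower values after the high-fat diet, beside 8.75% of all genes. In limma 0 of the 18 passed. At an unadjusted p under 0.05 there were 14 lower and 0 higher, beside 7.46% and 5.88% of all genes. The mean of these markers was -3.45, -3.45 and -3.58 on high-fat replicates 1 to 3 and -2.19, -2.21 and -2.53 on control replicates 1 to 3. Their part in the differences of Cox8b, Cox7a1, Fabp3 and Ppargc1a was not tested.

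The slow oxidative fibre genes had a median difference of -0.88 over 13 genes and the fast fibre genes one of -0.996 over 14. With a normexp background these turned to 0.17 and 0.27, where the median of all genes was 0.27. Of these genes, 9 slow and 12 fast ones were well above background on all 6 arrays. The others could pass the filter through the control arrays alone. With probes above background on all 6 arrays the medians were -0.54 for the slow and -0.88 for the fast genes. In limma 0 of either list passed. At an unadjusted p under 0.05, 8 and 9 genes were lower and 0 higher, beside 7.46% and 5.88% of all genes. These counts are taken over all genes of the lists, including those that could pass the filter through the control arrays alone. Of 12 genes common to both fibre types, with a median of -1.04 (0.0072 with normexp), 1 passed: Cacna1s, the calcium channel that triggers contraction, differed by -2.16 (SE 0.14, limma adjusted p = 0.039), and it is 1 of the 4 genes called in the whole comparison. Among the slow ones, Tnni1, the slow troponin I, differed by -1.98 (SE 0.16, limma adjusted p = 0.054), and Mb, which encodes the myoglobin of oxidative fibres, by 0.033 (SE 0.23, limma adjusted p = 0.954). Among the fast ones, Tnnc2, the fast troponin C, differed by -2.40 (SE 0.23, limma adjusted p = 0.091). Sln encodes sarcolipin, which makes the muscle calcium pump idle and release heat, and reached the background mark on 0 of 3 high-fat arrays. Its mean was at least 6.26-fold lower there, its mean control level of -4.57 being set against the lowest detected signals (limma adjusted p = 0.215). Sln passed the filter through its control arrays alone, so this bound is not independent of its difference. For that bound, a high-fat array counts at its lowest detected signal unless the probe itself was brighter.

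Relative to the mean of the 18 muscle markers on the same array, the diets overlapped for 8 of the 9 fitted members. Prdm16 lay higher in this ratio after the high-fat diet, at -3.19 ± 0.15 against -3.58 ± 0.14 (SD, n = 3 each). For Cox8b the ratio was -2.29 ± 0.54 against -1.56 ± 0.33, and for Zic1 0.16 ± 0.38 against 0.13 ± 0.58 (SD, n = 3 each). Relative to the mean of the 8 white fat markers, the diets overlapped for 3 of the 9 members (Ucp1, Ppargc1a and Dio2). The other 6 were lower after the high-fat diet without overlap, by differences of -2.35 (Cox8b) to -1.24 (Prdm16). That white fat mean was itself higher after the high-fat diet without overlap, at -4.67 to -4.33 against -5.20 to -4.74. A gene with the same level on every array would therefore also be lower in this ratio, and nothing is read from the 6. Overlap of 3 against 3 ratios does not show that the changes were equal. Relative to the muscle markers, Cox8b differed by -0.73 and Dio2 by 0.70, and both overlapped. Nor does a ratio say which side of it changed.

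**Figure D4:**
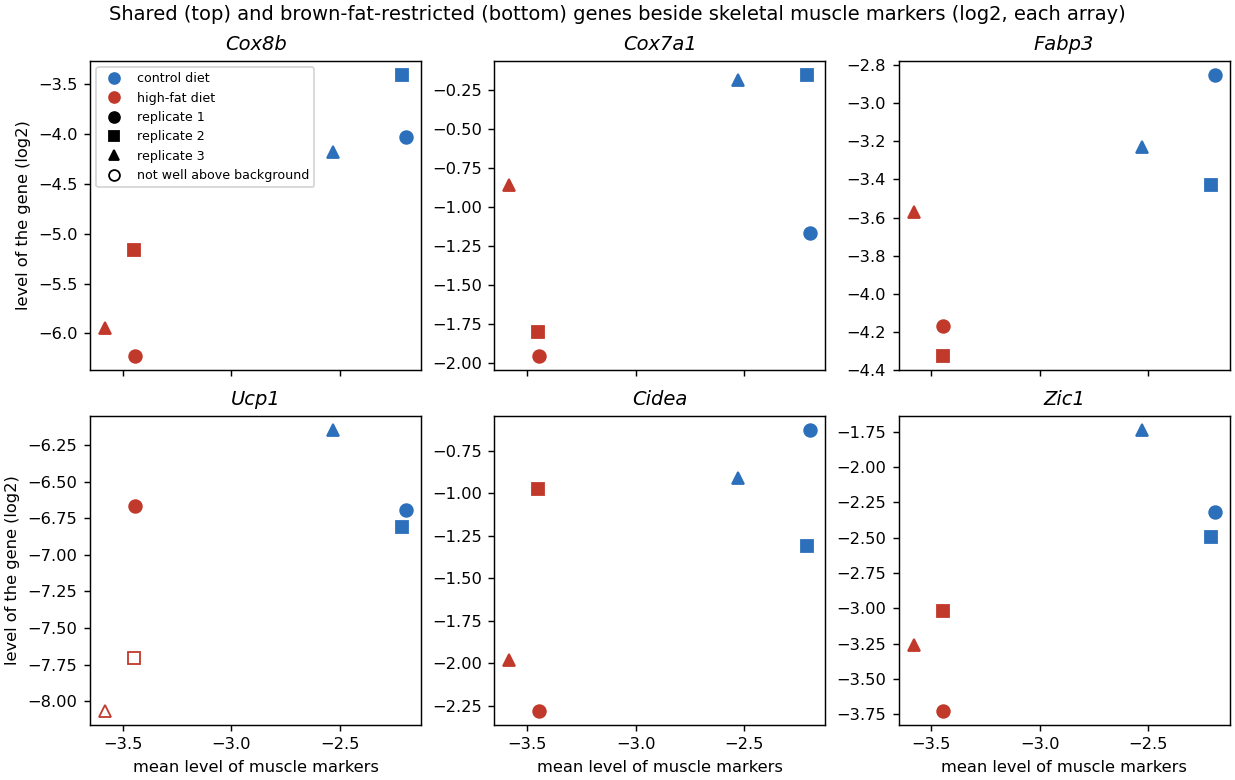
Level of 3 shared genes (top) and 3 brown-fat-restricted genes (bottom) on each array against the mean level of 18 skeletal muscle markers on that array, both in log2 units; open symbols are not well above background. The muscle means form 2 groups by diet, from -3.58 to -3.45 and from -2.53 to -2.19, and Cox8b, Fabp3 and Zic1 separate with them while Cox7a1, Ucp1 and Cidea overlap.

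White fat genes did not share 1 direction. Over 17 genes the median was 0.12 and 7 differences were negative. The diets did not overlap for 3 with lower and 4 with higher values, beside 8.75% and 8.47% of all genes. The mean of the 8 defining markers ran from -4.67 to -4.33 on the high-fat and from -5.20 to -4.74 on the control arrays, without overlap. Cfd differed by 1.78 (SE 0.27, limma adjusted p = 0.132) and Adipoq by 1.04 (SE 0.22, limma adjusted p = 0.222), both without overlap. Lipe, the hormone-sensitive lipase, differed by -0.29 (SE 0.13, limma adjusted p = 0.385), also without overlap, and the median of the 8 was 0.17. In limma 0 of the 8 passed. At an unadjusted p under 0.05 there were 0 lower and 2 higher, beside 7.46% and 5.88% of all genes. The 6 markers of the basal epithelial layer had higher levels as well, with a mean of 3.65 to 3.85 against 2.51 to 3.04. The part of these cell types in the members' differences was not tested.

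**Figure D5:**
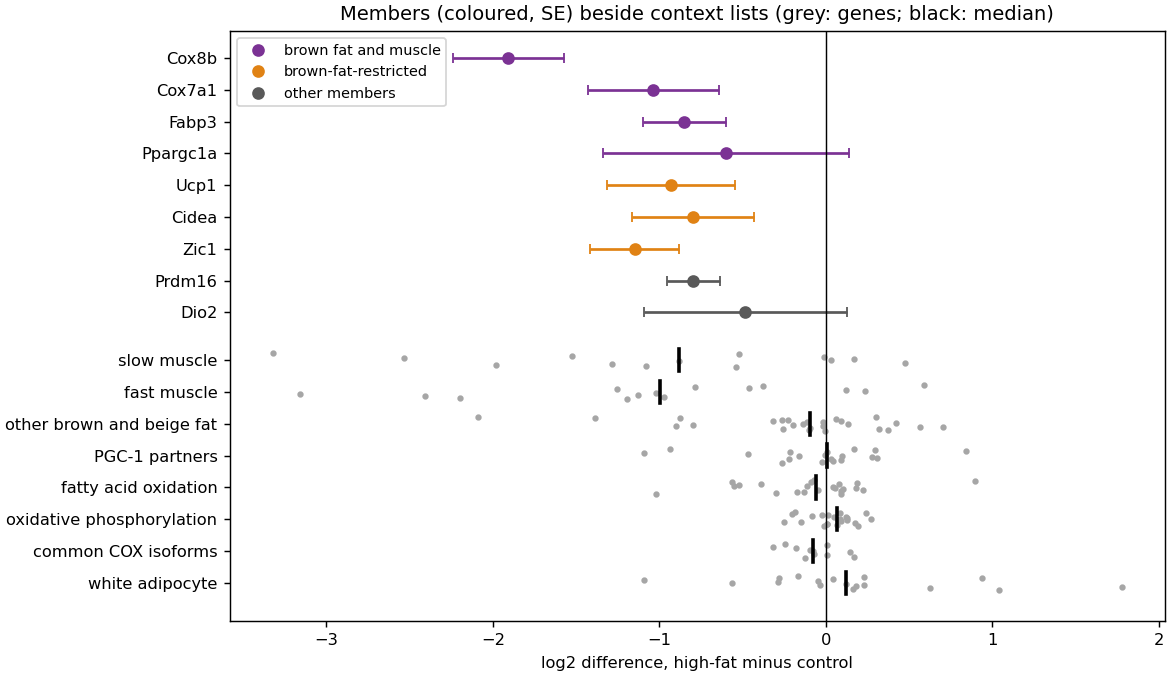
Log2 differences of the 9 fitted members (coloured points with their standard error) above the genes of 8 context lists (grey points, with the list median in black). The members and both muscle lists (medians -0.88 and -0.996) lie mostly to the left of 0 at this setting, with normexp giving 0.17 and 0.27 for the muscle lists; the median of the other brown and beige fat genes is -0.098 and that of oxidative phosphorylation 0.068.

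Patterns over the 6 arrays were compared with those of all named genes by Pearson's r, as a description of arrays that share the diet difference. The pattern most like that of Cox8b was Psg17's (r = 0.985 over 6 arrays) and the pattern most like that of Fabp3 was Fign's (r = 0.996 over 6 arrays), with differences of -0.31 and -0.85. The Cox7a1 pattern was common, with 970 genes above an r of 0.95 when unnamed transcripts are counted too. On the same count there were 33 for Cox8b, 84 for Fabp3, 23 for Ucp1, 21 for Cidea and 20 for Ppargc1a. With 6 arrays such likeness says nothing of shared control.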

How the data were processed

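Each array was read by the authors with Agilent Feature Extraction 11.0.1.1, per the file headers and the submitters' processing notes. The deposited scanner files hold intensity values on a linear scale for 44397 spots, background-subtracted and detrended by that software. The scanner's flags, a deposited 0 or 1 per spot, mark signals well above background. The deposited table of 30608 probes holds intensity values whose ratio to the scanner signal was constant per array (within 1%) for 99.9% of values, close to 1 over its 75th percentile. It is linear and not centred, with column medians of 0.134, 0.134, 0.137, 0.134, 0.140 and 0.134 for high-fat and then control replicates 1 to 3.

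Control and outlier spots of the scanner files were dropped and spots of a probe averaged. The array's header names an older mouse build (mm9), so no probe positions are given. Of 39429 probes, 27427 were named by RefSeq accession and 28689 were well above background on at least 3 arrays. The probe with the highest mean stood for each gene. The diet comparison used limma's linear model (version 3.58.1, R 4.3.3; two-sided, Benjamini-Hochberg over 23460 genes, threshold 0.05), which called 4 genes lower and 0 higher (1379 higher at an unadjusted p under 0.05). An exact permutation test of 3 against 3 cannot go below 0.10. Members, gene lists and the rule for named genes (all members, family relatives, list genes with the smallest p, and genes of most similar pattern) were chosen with earlier results of these data known. The scanner files hold no mean spot signals, so the normexp alternative (offset 50) used median spot and background signals. Replicates are separate mice per the labels, which state no pairing by replicate number. Other settings covered scaling, background, filters, the probe rule, variance, slide, replicate number, the deposited table and each array left out.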

Additional observations from a re-analysis of the deposited data

How the results depend on the processing

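The median difference of the 4 shared genes, -0.94, kept its sign in 18 of 18 alternatives, and so did that of the 3 restricted genes, -0.93. These alternatives are not independent, and some could not change the sign. The replicate block and the variance setting leave each difference as it is, and the slide block and the within-slide fit give the same estimate. The deposited table is nearly the same signal rescaled, and removing the filter left both medians unchanged. With probes above background on all 6 arrays, Ppargc1a and Ucp1 drop out and the medians, over 3 and 2 genes, were -1.04 and -0.97. With the normexp background they were -0.065 and -0.33 (-0.33 and -0.60 from the median of all genes), with the slide as a block or within the shared slide -1.31 and -0.85, and with single arrays left out -1.23 to -0.80 and -1.18 to -0.68. Their difference of -0.014 changed sign in 4 of 18 alternatives: it was 0.26 with normexp, -0.46 within the slide, and -0.55 (without high-fat replicate 3) to 0.38 (without high-fat replicate 2) with single arrays left out. The count of genes called lower in limma was 4. It was 0 with normexp, quantile normalization, no filter, the slide as a block, within the slide and with the replicate block (4044 genes at an unadjusted p under 0.05 with the replicate block), 2 with median scaling, 7 with probes above background on all 6 arrays, and 0 to 37 with single arrays left out. The labels state no pairing by replicate number. Deviations from the diet means correlated by 0.33, -0.14 and 0.25 for numbers 1 to 3, which cannot decide whether mice were paired. The replicate block could not alter the members' differences, because each number occurs in both diets. Averaging a gene's probes put Zic1 at -0.62 and Fabp3 at -1.10. The cause of these changes was not tested. Low signal limits Ucp1, Ppargc1a, Prdm16 and Elovl3. The sizes for Cox8b, Fabp3 and Zic1 also depend on how background is removed, with -0.090, -0.039 and -0.33 under normexp. On the high-fat arrays the Cox8b probe read only 26.3, 45.7 and 25.9 intensity units.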
